A study of Mus musculus with 20 samples.

Results

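The 46 genes described here encode proteins that copy DNA in S phase or that divide the chromosomes and the cell in mitosis. They were taken by symbol from a list whose rule uses no measured value, and all 46 are listed in both deposited tables, among 16536 genes in the first and 16140 in the second. By role they comprise 9 genes of replication licensing and the replication fork, 4 of nucleotide supply, 2 cyclin E genes, 7 mitotic cyclins and kinases, 7 genes of the spindle checkpoint and the anaphase-promoting complex, 5 of the centromere and passenger complex, 10 of the spindle and cytokinesis, and the 2 chromosome genes Mki67 and Top2a. The study took microglia, the resident macrophages of the brain, and monocytes, which enter it from blood, from mouse brain 3 days after permanent photothrombosis, a stroke model that closes cortical vessels with a dye excited by light. The first table, called GFP here, holds 8 libraries of Cxcr4-GFP reporter mice: 4 of microglia, sorted as GFP-negative, and 4 of monocytes, sorted as GFP-positive, each pair from 1 pool or animal (a pool of 2 mice, a pool of 5 mice and 2 single mice). The second, called Cre, holds 12 libraries of single mice, 3 each of microglia and monocytes from animals labelled Cxcr4CreER control and Cxcr4CreER KO. Cxcr4CreER is a tamoxifen-inducible Cre, and in both genotypes monocytes were the TdT-positive and microglia the TdT-negative sort. The label KO on microglia therefore names the animal, since these cells lacked the TdT signal. In both tables population and reporter signal coincide, and the labels give no tamoxifen schedule, age, sex or other sort marker. Titles of the GFP libraries and of the KO libraries carry a tag, BrKo, that the labels do not explain.

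A cell that divides passes from G1 to S phase when cyclin-dependent kinases inactivate Rb-family repressors and E2F factors switch on the genes of DNA replication. Later, the MuvB complex with B-Myb and FoxM1 switches on the genes of mitosis through a promoter word known as the CHR, often beside CCAAT boxes bound by NF-Y. Resting microglia divide slowly, and microglia near a brain lesion are known to divide in the days after injury, whereas monocytes are made from dividing precursors in bone marrow and are mostly thought to have left the cycle when they enter blood.

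The promoter words of the 2 programmes were looked for in RefSeq windows of the build GRCm38.p6, which run from 250 bases before to 50 bases after the transcription start, on both strands. The words were TTTGAA and TTCGAA for the CHR, CCAAT for the CCAAT box, and for E2F the word TTCCCGC, the word TTCGCGC, the word TTGCCGC and the word TTGGCGC. The reversed CCAAT word and TTGGCGC can share bases, and so can neighbouring E2F words. A window was found by symbol for 38 of the 46 genes, and not for Ccna2, Ccne2, Aurkb, Kif20a, Tpx2, Mcm4, Gins2 and Stmn1. Where RefSeq gave a gene 2 windows, which held for 3 of the 38, the first was used. A CHR word stood in 21 of 26 windows of mitosis genes (80.8%) and in 2 of 12 windows of S phase genes (16.7%), beside 15.1% of 9792 windows of genes tested in the Cre table and 19.4% of all 27025 windows. An E2F word stood in 58.3% of the S phase windows and 19.2% of the mitosis windows, beside 16.7% of the tested genes and 9.69% of all. A CCAAT word stood in 75% of the S phase windows and 80.8% of the mitosis windows, beside 39.4% of the tested genes and 37.9% of all. A CHR together with a CCAAT word stood in 16.7% of the S phase windows and 73.1% of the mitosis windows, beside 6.48% and 7.7%. The shares describe letters in these windows and show no binding. The 5 windows below are shown because the genes stand for the mitosis set (Top2a, Plk1, Cdk1 and Ccnb2) and for the licensing set (Mcm5) in the values that follow. They are written 5′ to 3′ along the gene, with the searched words in capitals, and lie at chr11:99024140-99024439 (minus strand, Top2a), chr7:122159185-122159484 (plus, Plk1), chr10:69352863-69353162 (minus, Cdk1), chr9:70421505-70421804 (minus, Ccnb2) and chr8:75109259-75109558 (plus, Mcm5).
Top2a: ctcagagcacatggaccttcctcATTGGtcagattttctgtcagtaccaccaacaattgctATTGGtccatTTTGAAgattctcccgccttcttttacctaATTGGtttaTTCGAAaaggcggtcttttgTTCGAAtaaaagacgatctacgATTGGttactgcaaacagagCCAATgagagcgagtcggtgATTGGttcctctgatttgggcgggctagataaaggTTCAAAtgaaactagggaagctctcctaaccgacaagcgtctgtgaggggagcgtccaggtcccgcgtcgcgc
Plk1: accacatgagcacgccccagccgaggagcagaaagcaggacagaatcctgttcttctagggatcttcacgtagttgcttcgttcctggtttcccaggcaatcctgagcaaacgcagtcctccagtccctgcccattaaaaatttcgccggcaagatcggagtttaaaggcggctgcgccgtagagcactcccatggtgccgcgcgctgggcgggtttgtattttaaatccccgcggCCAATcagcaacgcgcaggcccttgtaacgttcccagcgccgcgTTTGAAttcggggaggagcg
Cdk1: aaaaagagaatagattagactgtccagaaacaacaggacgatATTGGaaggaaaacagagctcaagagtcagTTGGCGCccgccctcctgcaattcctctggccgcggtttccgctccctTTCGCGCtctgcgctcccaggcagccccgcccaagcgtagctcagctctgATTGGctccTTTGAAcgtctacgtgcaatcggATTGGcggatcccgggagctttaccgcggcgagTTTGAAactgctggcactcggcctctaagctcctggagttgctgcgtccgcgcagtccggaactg
Ccnb2: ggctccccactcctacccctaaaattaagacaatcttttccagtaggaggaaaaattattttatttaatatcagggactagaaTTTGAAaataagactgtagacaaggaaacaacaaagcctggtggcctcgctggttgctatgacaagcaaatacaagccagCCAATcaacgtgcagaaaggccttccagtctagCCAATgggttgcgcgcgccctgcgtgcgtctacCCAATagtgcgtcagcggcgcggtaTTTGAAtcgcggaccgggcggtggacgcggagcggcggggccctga
Mcm5: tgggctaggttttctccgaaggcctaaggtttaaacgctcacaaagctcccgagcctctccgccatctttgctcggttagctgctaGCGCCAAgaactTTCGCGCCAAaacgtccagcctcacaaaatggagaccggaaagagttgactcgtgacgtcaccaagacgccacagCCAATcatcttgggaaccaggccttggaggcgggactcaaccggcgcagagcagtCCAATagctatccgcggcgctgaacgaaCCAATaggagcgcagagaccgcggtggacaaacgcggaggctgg
The Top2a window holds 4 CHR and 6 CCAAT words and no E2F word. The Cdk1 window holds all 3 kinds, with 2 CHR, 3 CCAAT and 2 E2F words. The Mcm5 window holds 3 CCAAT and 3 E2F words, with no CHR word, and 2 of its E2F words overlap, between 152 and 143 bases before the start. For Mcm5 the 20 bases after this start were not found in a GENCODE transcript of the gene, as they were for the other 4, so its positions hold for the RefSeq start only.

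Depth differed between the libraries, from 617302 to 14927208 recovered reads in the GFP table and from 9732177 to 56803993 in the Cre table. In the GFP table, microglia 3, microglia 4 and monocytes 3 stand apart, with 5598, 3489 and 3029 genes detected against 10422 to 14498 in the others. Cxcr4, the targeted gene, was at 1183, 1332 and 1166 normalized counts in control monocytes and at 783.5, 1010 and 536 in KO monocytes, and between 0 and 7.88 in the 6 Cre microglia libraries. In GFP monocytes it was between 1266 and 3017, and in GFP microglia between 0 and 10.3. Counts per gene cannot show a deleted stretch of Cxcr4. All 8 microglia markers had reads in all 6 groups, with summed counts of 180953 to 261855 in Cre microglia against 19991 to 35713 in Cre monocytes. Summed counts of the 8 monocyte markers were 107801 to 182622 in Cre monocytes against 2098 to 7903 in Cre microglia. Ly6c2, Chil3 and Vcan were at 0 in KO microglia.

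Reads on the 46 genes made up a larger share of the library in microglia than in monocytes. In CPM, with the ribosomal transcript Rn45s left out of the total, control microglia had 1966, 1818 and 1580 on these genes and control monocytes 499, 532 and 617. KO microglia had 1608, 2060 and 2258, and KO monocytes 828, 850.3 and 667. In both genotypes every microglia library was above every monocyte library. In the GFP table, microglia had 2054, 1754, 668 and 1603, and monocytes 599.6, 531, 519 and 707, so that GFP microglia 3 lay within the monocyte range. Only 12, 9 and 5 of the 46 genes had a read in GFP microglia 3, GFP microglia 4 and GFP monocytes 3. Most of the signal in GFP microglia 4 came from Mki67, Stmn1 and Aurka (736.4, 414.9 and 274.1 normalized counts). In GFP monocytes 3 most came from Ccne1 (408.4), so these shares rest on few genes. The number of the 46 genes with a read was 44 to 46 in the 6 Cre microglia libraries and 35 to 41 in the 6 Cre monocyte libraries. After thinning to the depth of the shallowest Cre library, 43.8 to 45.8 and 34.7 to 40.8 of the 46 would be expected with a read. In bulk libraries, fewer dividing cells and less of these RNAs per cell cannot be told apart.

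**Figure D1:**
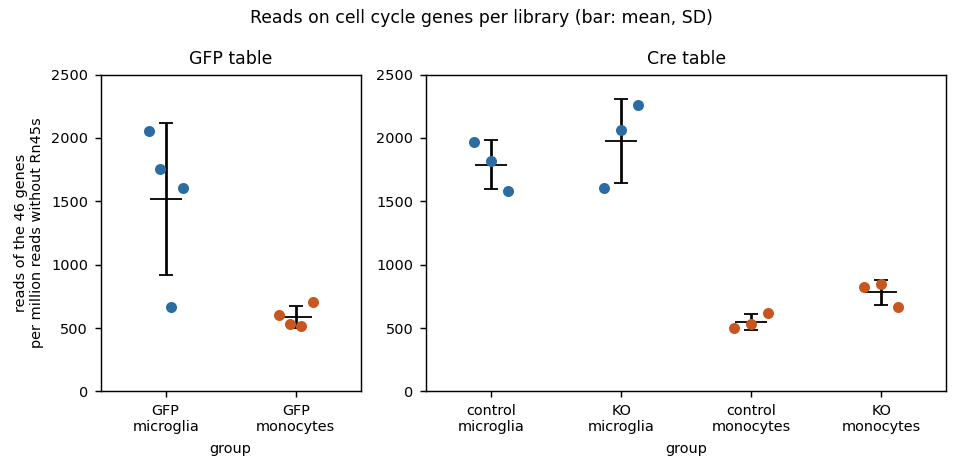
Reads on the 46 cell cycle genes in CPM without Rn45s (vertical axis) in each library (points), by group, with the mean and SD of the group as a bar. In the Cre table microglia libraries sit between 1580 and 2258 and monocyte libraries between 499 and 850.3, and among GFP libraries 1 of microglia sits at 668, inside the monocyte range.

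The first comparison asks how monocytes differ from microglia of the same genotype in the Cxcr4CreER line (3 libraries against 3). Differences were tested with limma on log2 of the normalized count plus 1, a gene was called at an adjusted p under 0.05 over 12432 tested genes, and a fold on this scale understates the change of low genes. In control animals 9 of the 46 genes were lower in monocytes and 0 higher, where 3.06% of all tested genes were lower and 3.46% higher. The 9 were Stmn1, Trip13, Cenpe, Top2a, Racgap1, Kif15, Plk1, Cenpf and Tk1. In KO animals 7 were lower and 0 higher, beside 2.98% and 3.85% of all tested genes, namely Stmn1, Ccna2, Racgap1, Kif11, Cdk1, Cdca3 and Prc1. Stmn1 and Racgap1 were called in both genotypes, which is 22.2% of the control calls and 28.6% of the KO calls. The median log2 difference of the 46 genes was -3.15 in control animals (45 below 0 and 1 above, beside 54.2% and 42% of all genes with a read) and -2.14 in KO animals (37 below, 8 above and 1 at 0, beside 54.3% below and 41.5% above), where the median of all genes with a read was -0.18 and -0.17. Setting genes with a group at 0 to their bound shifted these medians by 0.00. For 25 of the 46 genes every control monocyte library was below every control microglia library, beside 10.3% of all genes, and the same held for 21 genes in KO animals, beside 12.1%. Neutrophil markers moved with the population: all 10 had reads in the monocyte groups, with summed counts of 18026 to 42487 in control and 40238 to 74821 in KO monocytes, against 908 to 1924 in control microglia (4 of 10 with reads) and 1373 to 4030 in KO microglia (6 of 10; Ly6g, Ltf, Ngp and Mmp8 at 0 in both microglia groups). The 5 border macrophage markers summed to 44080 to 52476 in control and 39537 to 49509 in KO monocytes, with Lyve1 at 0 in both, against 1493 to 3016 in the 6 microglia libraries. In control animals 2 of the 5 had a log2 difference above 0 and 3 below, with a median of -0.37. In KO animals 4 were above and 1 below, with a median of 1.60. The part of either list in these differences was not tested. Leaving out control microglia 1 left 3 calls in control animals (Cenpe, Stmn1 and Top2a). In KO animals the calls were Ccna2 and Stmn1 (2) without KO microglia 2, KO microglia 3 or KO monocytes 1, these and Hmmr (3) without KO microglia 1, and these and Ccnb2 and Cdca8 (4) without KO monocytes 2.

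**Figure D2:**
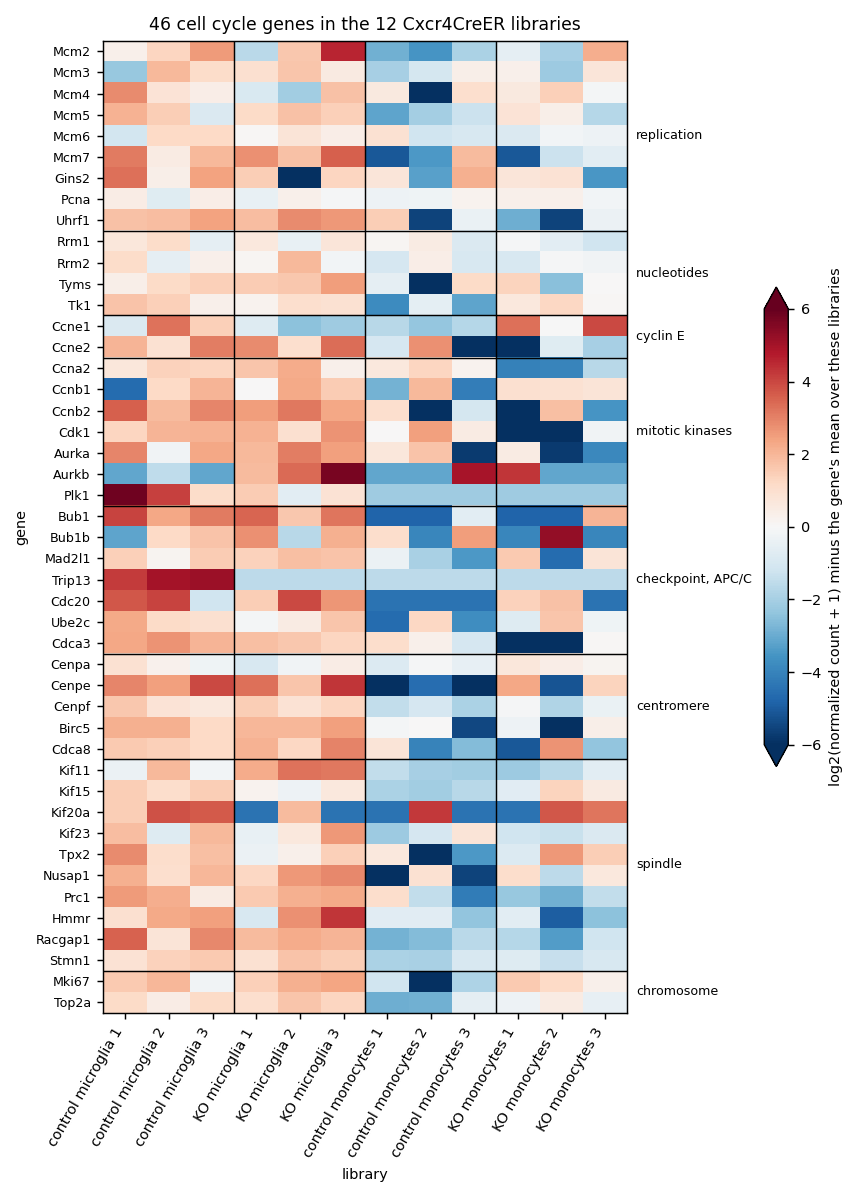
Normalized counts of the 46 genes (rows, grouped by role) in the 12 Cre libraries (columns), as log2 of the count plus 1 minus the gene's mean over the 12 libraries. Most rows are red in the 6 microglia libraries and blue in the 6 monocyte libraries, while Pcna differs little and Trip13 is above 0 only in control microglia.

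Of the licensing and fork genes, which load and run the replicative helicase, 0 of 9 were called by limma in either genotype. Pcna, the sliding clamp of the DNA polymerases, had 5809, 2579 and 5638 normalized counts in control microglia and 3428, 3553 and 4952 in control monocytes. In KO animals Pcna had 3131, 5329 and 4119 in microglia and 5325, 5343 and 3835 in monocytes. The 4 groups of Pcna overlap, with a log2 difference of -0.16 (SE 0.35, limma adjusted p = 0.852) in control and 0.22 (SE 0.35, limma adjusted p = 0.804) in KO animals. Mcm5, a subunit of the MCM2-7 helicase, had 666, 429 and 83.7 in control microglia against 16.6, 37.3 and 62.7 in control monocytes, and 344, 535 and 426 against 276, 201 and 47.4 in KO animals. The populations did not overlap in either genotype, but the difference of -3.05 (SE 0.97, limma adjusted p = 0.0936) and of -1.62 (SE 0.97, limma adjusted p = 0.407) did not pass the limma test. DESeq2 called Mcm5 (adjusted p = 0.00209) and Mcm2 (adjusted p = 0.0184) lower in control monocytes, and none of the 9 in KO monocytes. The 9 log2 differences ran from -4.17 (Mcm2) to -0.16 in control animals and from -5.40 (Uhrf1) to 1.06 (Mcm4) in KO animals, so that the role holds genes with little difference beside genes with a large one.

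Among the 4 genes of nucleotide supply, Tk1 was called in control animals. Tk1, the S phase thymidine kinase, had 737, 615 and 284.5 in control microglia and 15.8, 151 and 24.3 in control monocytes. KO microglia had 261, 451 and 428 and KO monocytes 358, 545 and 235. The control populations did not overlap and the KO populations did, with a log2 difference of -3.66 (SE 0.84, limma adjusted p = 0.0225) and -0.04 (SE 0.84, limma adjusted p = 0.99). The control call was lost without control microglia 1 or 2 or without control monocytes 1 or 3, and adjusted p ran from 0.00323 to 0.0792 over the 12 fits that leave out a library. Rrm2, the small subunit of ribonucleotide reductase, had 1604, 513 and 917 in control microglia, 366, 968 and 372 in control monocytes, 787, 2855 and 657.5 in KO microglia and 377.5, 707 and 639 in KO monocytes. These ranges overlap, as do those of the large subunit Rrm1, and the 4 genes had log2 differences between -3.66 and -0.52 in control and between -2.27 and -0.04 in KO animals.

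The cyclin E genes, whose products start S phase with Cdk2, were not called. Ccne2 had 284, 127 and 568 in control microglia and 33.2, 463 and 0 in control monocytes, which overlap. In KO animals it had 486, 135 and 689 and 0, 40.5 and 16.03, which do not (-5.33, SE 2.01, limma adjusted p = 0.158). Ccne1 was the single gene of the 46 that was higher in every KO monocyte library than in every KO microglia library (10.2% of all genes): it had 8.21, 1.87 and 2.59 in microglia and 154, 14.6 and 244 in monocytes, while in control animals it had 7.73, 152 and 41 and 3.95, 2.19 and 3.84. Its log2 difference was -3.17 (SE 1.43, limma adjusted p = 0.248) in control and 4.20 (SE 1.43, limma adjusted p = 0.114) in KO animals, and DESeq2 called it lower in control monocytes (adjusted p = 0.0207) and higher in KO monocytes (adjusted p = 0.00366).

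Of the 7 mitotic cyclins and kinases, Plk1 was called in control animals and Ccna2 and Cdk1 in KO animals. Cdk1, the kinase that drives entry into mitosis, had 308, 514 and 520.2 in control microglia and 124, 691 and 175 in control monocytes. It had 536, 239.6 and 811 in KO microglia and 0, 0 and 106 in KO monocytes. The control populations overlap and the KO populations do not, with 2 KO monocyte libraries at 0 (-0.81, SE 1.56, limma adjusted p = 0.827, and -6.63, SE 1.56, limma adjusted p = 0.0247). The KO call was lost without KO microglia 1, 2 or 3 or KO monocytes 1 or 2 (adjusted p up to 0.0947) and by edgeR, DESeq2 and the fit of the 2 groups alone. Ccna2, cyclin A2, partner of Cdk1 and Cdk2 in S and G2 phase, had 304.5, 494 and 468 in control microglia and 292, 461 and 222.5 in control monocytes. KO microglia had 605.5, 889 and 236 and KO monocytes 10.4, 11.3 and 58.8. Here too the control ranges overlap and the KO ranges do not (-0.41, SE 0.81, limma adjusted p = 0.835, and -4.63, SE 0.81, limma adjusted p = 0.00518), and the KO call held in all 21 alternatives (adjusted p 0.00318 to 0.0299 over the 12 that leave out a library).

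Plk1, the polo-like kinase of mitosis, had 247.5, 74.8 and 8.54 in control microglia and 0 in all 3 control monocyte libraries, at least 77.6-fold lower with the group set to 3 reads in all (-5.82, SE 1.25, limma adjusted p = 0.0159). KO microglia had only 11.9, 1.87 and 6.89 and KO monocytes 0 (-2.73, SE 1.25, limma adjusted p = 0.259). The control call was lost under CPM scaling, by edgeR and in the fit of the 2 groups alone. Without control microglia 1 or 2 or KO microglia 1, Plk1 no longer passed the filter and was not tested. Ccnb2, cyclin B2, had 1890, 601 and 1212 in control microglia, 319, 0 and 76.7 in control monocytes, 905, 1441 and 796 in KO microglia and 0, 558 and 12.7 in KO monocytes. It did not overlap in either genotype and was not called (-5.25, SE 2.23, limma adjusted p = 0.218, and -5.68, SE 2.23, limma adjusted p = 0.175). Its monocyte libraries ranged from 0 to 558. Aurkb, the kinase of the chromosomal passenger complex, is the single gene with a control log2 difference above 0 (limma adjusted p = 0.678): it had 0, 1.97 and 0 in control microglia and 0, 0 and 263 in control monocytes, and 31, 89.9 and 442 in KO microglia and 169, 0 and 0 in KO monocytes. With 2 reads in control microglia, the ratio of control monocytes to control microglia was 134 with a 95% counting interval of 37 to 1100. A single control monocyte library and a single KO monocyte library carry all of its monocyte reads.

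Checkpoint genes hold the anaphase-promoting complex back until all chromosomes are attached to the spindle. Trip13, an ATPase that remodels the checkpoint protein Mad2, had 54.8, 95.5 and 103 in control microglia and 0 in the 9 other Cre libraries, at least 59.5-fold lower in control monocytes (-6.37, SE 0.86, limma adjusted p = 0.000954). Its spread is 0 in 3 of the 4 groups, and edgeR and DESeq2 did not call it. Cdc20, the activator of the complex, had 288, 362 and 8.54 in control microglia and 0 in all control monocyte libraries, at least 154-fold lower, and missed the limma threshold (-6.64, SE 1.85, limma adjusted p = 0.0551). DESeq2 called Cdc20 lower in control monocytes (adjusted p = 9.36e-05). In KO animals Cdc20 had 59.3, 342.5 and 134 and 55.5, 72 and 0, which overlap. Cdca3, a trigger of mitotic entry, had 249, 217 and 169.8 in KO microglia and 0, 0 and 73.5 in KO monocytes (-5.64, SE 1.48, limma adjusted p = 0.0414), and 356, 453 and 293 and 148, 85.6 and 34.5 in control animals (-2.23, SE 1.48, limma adjusted p = 0.453). Neither genotype overlaps for Cdca3, and its KO call was lost in 9 of the 12 fits that leave out a library, kept only without control monocytes 2, control monocytes 3 or KO monocytes 3 (adjusted p 0.00192 to 0.13). It was also lost by edgeR, DESeq2 and the fit of the 2 groups alone. Over the 7 genes of this role, 5 were lower without overlap in control animals, beside 10.3% of all genes, and 1 in KO animals, beside 12.1%, a count near that share.

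At the centromere, Cenpe, a motor that moves chromosomes to the spindle equator, had the largest control log2 difference of the 46 genes. It had 572, 417.5 and 1164 in control microglia and 0, 2.19 and 0 in control monocytes, where the 2.19 is a single read. Microglia over monocytes, the ratio was 981 with a 95% counting interval of 176 to 38700, which covers counting error only (-8.79, SE 1.67, limma adjusted p = 0.00848). In KO animals Cenpe had 749, 236 and 1503 in microglia and 374, 1.13 and 189.7 in monocytes, which overlap (-3.59, SE 1.67, limma adjusted p = 0.267). Cenpf, a large kinetochore protein, was more even: 1733, 989.6 and 876.5 in control microglia against 204.5, 281 and 151 in control monocytes, and 1550, 1020 and 1378 against 529, 162 and 431 in KO animals. Neither genotype overlaps; control animals were past the threshold (-2.47, SE 0.54, limma adjusted p = 0.0174, lost without control microglia 1 or control monocytes 3, adjusted p up to 0.0666) and KO animals just missed it (-1.96, SE 0.54, limma adjusted p = 0.0516). DESeq2 called Cenpf lower in monocytes of both genotypes (adjusted p = 2.74e-05 in control and 0.00482 in KO animals). Cenpa, the histone that marks the centromere, had the smallest difference of the 5 in control animals (-0.78, SE 0.52, limma adjusted p = 0.453).

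Of the 10 spindle and cytokinesis genes, 3 were called in control animals and 4 in KO animals. Stmn1, which encodes stathmin, a protein that takes microtubules apart, had 2962, 4152 and 4786 in control microglia and 434, 410.4 and 826 in control monocytes. It had 2983, 5200 and 4405 in KO microglia and 934.5, 620.3 and 825.5 in KO monocytes. Each monocyte library was below each microglia library, with log2 differences of -2.88 (SE 0.38, limma adjusted p = 0.000846) and -2.38 (SE 0.38, limma adjusted p = 0.00308), and both calls held in all 21 alternatives. Racgap1, part of the centralspindlin complex of the dividing cell's midzone, had 1129, 166 and 732 in control microglia and 12.6, 15.4 and 30.7 in control monocytes, and 366, 459 and 404 and 29.5, 8.63 and 42.7 in KO animals. Neither genotype overlaps (-4.75, SE 0.95, limma adjusted p = 0.0111, and -4.13, SE 0.95, limma adjusted p = 0.023); the control call was lost without control microglia 1 or 3 (adjusted p up to 0.0531) and the KO call without KO microglia 1, 2 or 3 or KO monocytes 1 or 2 (up to 0.0817).

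Kif15 and Kif11 are kinesins that push spindle poles apart. Kif15 had 467, 349 and 472 in control microglia and 44.2, 39.5 and 52.4 in control monocytes, a log2 difference of -3.21 (SE 0.69, limma adjusted p = 0.0156) that was lost without control microglia 1 or 3 (adjusted p up to 0.0579). In KO animals it had 196, 137 and 260.2 and 106, 427 and 248, which overlap (0.23, SE 0.69, limma adjusted p = 0.911). Kif11 had 36.6, 179 and 41 in control microglia and 15.8, 10.97 and 10.2 in control monocytes, and 219, 445.5 and 427 and 9.55, 13.9 and 29.4 in KO animals. Both genotypes are without overlap, and the KO difference was called (-2.33, SE 1.01, limma adjusted p = 0.233, and -4.37, SE 1.01, limma adjusted p = 0.0232). The KO call of Kif11 was lost without KO microglia 1, 2 or 3 or KO monocytes 1 or 2 (up to 0.0923) and by edgeR. DESeq2 called Kif11 lower in monocytes of both genotypes (adjusted p = 0.0142 in control and 5.62e-06 in KO animals). Prc1, which bundles the midzone microtubules, had 534, 795.5 and 873 in KO microglia and 36.4, 23.3 and 64.1 in KO monocytes (-4.21, SE 1.14, limma adjusted p = 0.0474). That call is at the threshold: it was lost with the animal as a block (adjusted p = 0.0591), with no filter on low values (0.057), by edgeR (0.0809) and in 9 of the 12 fits that leave out a library, kept only without control monocytes 1, 2 or 3. Tpx2 and Kif20a, named after their values were seen, had differences of unlike sign in the 2 genotypes, none of them called: -5.34 (SE 1.64, limma adjusted p = 0.0829) and 0.65 (SE 1.64, limma adjusted p = 0.891) for Tpx2, and -4.51 (SE 2.79, limma adjusted p = 0.416) and 3.15 (SE 2.79, limma adjusted p = 0.61) for Kif20a. Ccne1, Cenpa, Mcm3 and Bub1 were likewise named after their values were seen.

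Top2a, the topoisomerase that untangles sister chromosomes, had 2289, 1386 and 2240 in control microglia and 131, 136 and 706 in control monocytes. KO microglia had 2034, 3287 and 2500 and KO monocytes 816, 1446 and 726. Neither genotype overlaps, with a called difference in control animals (-3.04, SE 0.61, limma adjusted p = 0.011) and -1.43 (SE 0.61, limma adjusted p = 0.22) in KO animals. The control call of Top2a was lost in the fit of the 2 groups alone (adjusted p = 0.0906), as were those of Cenpf, Kif15, Racgap1 and Tk1, and edgeR did not call Tk1. Mki67, which codes for Ki-67, the coat protein of mitotic chromosomes used to stain cycling cells, had 1936, 2600 and 548 in control microglia and 283.5, 0 and 175 in control monocytes. KO microglia had 1750, 2832 and 3345 and KO monocytes 1892, 1460 and 802, which overlap. Its difference was -5.25 (SE 1.63, limma adjusted p = 0.0865) in control and -0.97 (SE 1.63, limma adjusted p = 0.824) in KO animals. DESeq2 called Mki67 lower in control monocytes, with an adjusted p of 0.00958.

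**Figure D3:**
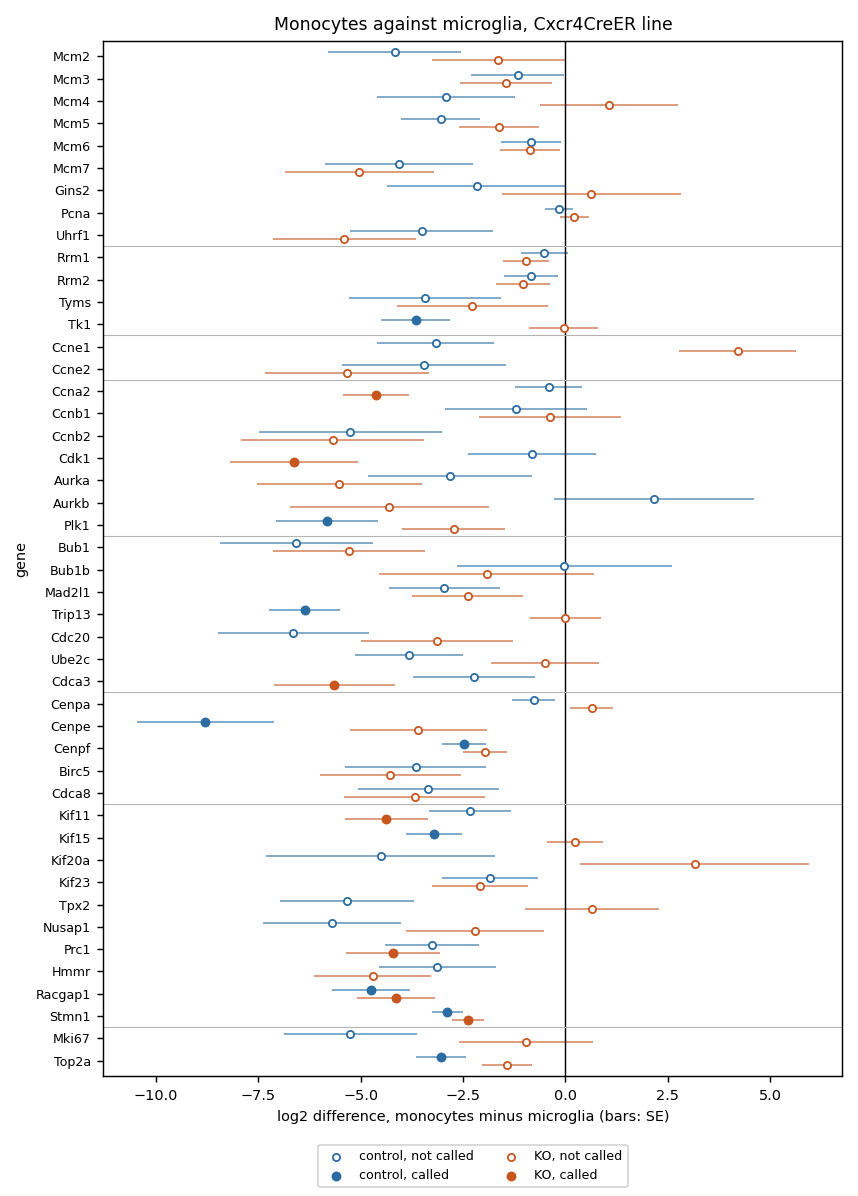
Log2 difference between monocytes and microglia (horizontal axis, bars are SE) for each of the 46 genes in control (blue) and KO (orange) animals of the Cxcr4CreER line, with filled points where limma's adjusted p was under 0.05. The 9 control and 7 KO calls all lie left of 0, and Ccne1, Aurkb and Kif20a are among the genes on opposite sides of 0 in the 2 genotypes.

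Other cell cycle genes were described from lists chosen with earlier results of these data in view. Of the G1 cyclins and their kinases, which act before S phase, 1 of 6 was higher in monocytes in each genotype and 0 lower. That gene was Ccnd2, cyclin D2, with a log2 difference of 6.70 (SE 0.81, limma adjusted p = 0.000458) in control and 3.48 (SE 0.81, adjusted p = 0.0242) in KO animals. Among inhibitors of these kinases, Cdkn1b was higher in monocytes of both genotypes (1.67, adjusted p = 0.0225, and 1.40, adjusted p = 0.0496) and Cdkn1a in KO animals (1.48, adjusted p = 0.0194), so that 1 and 2 of 5 tested were called. Foxm1, the factor of the mitotic programme, was lower in both (-5.18, adjusted p = 0.0488, and -5.45, adjusted p = 0.0378) and was the single call of 19 E2F, Rb and MuvB genes. Cdc6, a licensing factor, was lower in both (-4.77, adjusted p = 0.0481, and -6.75, adjusted p = 0.00845) and the single call of 28 further replication genes tested.

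Of 58 further mitosis genes, 55 were tested: 11 were lower and 1 higher in control monocytes, and 2 lower and 1 higher in KO monocytes. Of all tested genes 3.06% were lower in control and 2.98% in KO monocytes, so that the KO count of 2, like the single calls of 19 and of 28 above, is near that share. Their median log2 difference was -2.79 and -2.49, beside -0.18 and -0.17 for all genes. Nuf2, a subunit of the kinetochore complex Ndc80, the checkpoint kinase Ttk, and Hjurp, the chaperone of Cenpa, which the Cre table lists as A730008H23Rik, had the smallest p-values in control animals. Their differences were -7.14 (limma adjusted p = 0.00376), -6.96 (adjusted p = 0.00559) and -8.56 (adjusted p = 0.00211). In KO animals the 2 lower genes were Aspm (-7.68, adjusted p = 0.00787) and Cenpk (-6.44, adjusted p = 0.0195). Ncapg2, a condensin II subunit, was the higher gene in both genotypes (2.51, adjusted p = 0.0217, and 2.87, adjusted p = 0.0109). Of 10 replication repair genes, Fancd2 and Bard1 were lower in control monocytes and Fancd2 in KO monocytes. Of 8 antiproliferative genes, Klf2 was lower in both and Btg1 higher in control monocytes. Of 27 tested replication-dependent histone genes 0 were called in control animals and 1, Hist1h2bc, was lower in KO monocytes (-2.28, adjusted p = 0.0437). Most of these histone messages lack a poly(A) tail, and the Cre libraries were made from poly(A) RNA.

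KO and control animals were then compared within each population. In microglia 1 of the 46 genes was lower in KO animals and 0 higher, beside 0.0241% and 0.00804% of all tested genes. The gene was Trip13, with 54.8, 95.5 and 103 in control and 0 in all KO microglia libraries, at least 69.6-fold lower (limma adjusted p = 0.0284). Trip13 has a spread of 0 in the other groups of the fit, and the call was lost in the fit of the 2 groups alone (adjusted p = 0.316), by edgeR (1) and by DESeq2 (0.908), and on leaving out any KO microglia or any monocyte library (0.0564 to 0.17). Without a control microglia library the gene no longer passes the filter. The median log2 difference of the 46 genes was 0.12, with 26 above and 20 below 0, beside 0.00 for all genes, of which 49.4% were above and 46.4% below. At an unadjusted p under 0.05 there were 4 of the 46, beside 3.53% of tested genes. Tyms, Aurkb and Kif11 were higher in every KO than in every control microglia library (4.32% of all genes), and Trip13, Cdca3 and Kif15 lower in every one (3.81%). Both counts, 3 of 46 each, are near these shares. Aurkb had 2 reads in the control group, 0, 1.97 and 0 normalized counts, against 31, 89.9 and 442 in KO microglia, a ratio of 286 with a counting interval of 79.1 to 2360 (6.24, SE 2.43, limma adjusted p = 1). Mki67, Top2a and Stmn1 overlapped between the genotypes, at 0.86 (SE 1.63, limma adjusted p = 1), 0.41 (SE 0.61, limma adjusted p = 1) and 0.07 (SE 0.38, limma adjusted p = 1), as did Cdk1, Ccna2, Ccnb2, Ccne2, Plk1, Cdc20, Mcm5, Pcna and Rrm2.

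In monocytes 0 of the 46 genes were called between KO and control animals by limma, beside 0.0402% of tested genes higher and 0% lower, and edgeR also called 0. At an unadjusted p under 0.05 there were 11 of 46, beside 6.08% of all tested genes. DESeq2 called 5: Ccne1, Cdc20, Cenpe and Kif15 higher and Ccna2 lower in KO monocytes, beside 2.73% of all genes in either direction. Ccna2 had 292, 461 and 222.5 in control and 10.4, 11.3 and 58.8 in KO monocytes, without overlap, and Cdk1, its partner, 124, 691 and 175 and 0, 0 and 106, also without overlap. The 2 genes had the differences -3.94 (SE 0.81, limma adjusted p = 0.229) and -5.71 (SE 1.56, limma adjusted p = 0.447), and were the only ones of the 46 with every KO library lower (3.61% of all genes). A count of 2 among 46 is near that share. Tk1, Ccne1, Cenpa, Kif15, Mki67 and Top2a had every KO library higher (3.86% of all genes). Tk1 had 15.8, 151 and 24.3 in control against 358, 545 and 235 in KO monocytes (3.16, SE 0.84, limma adjusted p = 0.425). Mki67 had 283.5, 0 and 175 against 1892, 1460 and 802 (5.14, SE 1.63, limma adjusted p = 0.596), and Top2a 131, 136 and 706 against 816, 1446 and 726 (2.02, SE 0.61, limma adjusted p = 0.55). Mki67 was thus above, and Cdk1 below, the control libraries in every KO monocyte library. Cdc20 was at 0 in control monocytes and had 55.5, 72 and 0 in KO monocytes, at least 29.9-fold higher with overlap at 0 (4.00, SE 1.85, limma adjusted p = 0.828). Cenpe, with 1 control read, had a ratio of KO to control of 257 with a counting interval of 46.2 to 10200 (5.18, SE 1.67, limma adjusted p = 0.602). Plk1 was at 0 in both groups. Stmn1 (0.57, SE 0.38, limma adjusted p = 0.879), Pcna (0.28, SE 0.35, limma adjusted p = 0.942), Mcm5 (1.99, SE 0.97, limma adjusted p = 0.835) and Rrm2 (0.12, SE 0.66, limma adjusted p = 1) overlapped, as did Ccne2 (-1.50, SE 2.01, limma adjusted p = 0.95), Ccnb2 (-0.57, SE 2.23, limma adjusted p = 1) and Aurkb (-0.21, SE 2.43, limma adjusted p = 1). Leaving out control monocytes 3 gave a call for Top2a, higher, and leaving out KO monocytes 3 gave a call for Cdk1, lower. The median log2 difference of the 46 genes was 0.36, with 27 above, 17 below and 2 at 0, beside 48.9% of all genes above and 45% below.

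Markers of myeloid progenitors, which divide, were also compared in these libraries. All 8 had reads in KO monocytes, with summed counts of 5467, 1908 and 647, and 5 of 8 in control monocytes, with 251, 261 and 546 and with Mpo, Elane and Ms4a3 at 0. Elane, neutrophil elastase, was higher in KO monocytes (8.75, SE 1.14, limma adjusted p = 0.0207) and was the single call of 6 tested markers. Of the 8 listed, 6 had a log2 difference above 0 and 2 below, with a median of 5.19. Neutrophil markers summed to 74821, 49617 and 40238 in KO monocytes and 18026, 42487 and 33050 in control monocytes, with all 10 above 0 in both groups. KO monocytes 1 had the highest progenitor sum. Its reads on all 46 genes, 828 CPM without Rn45s, lay between those of KO monocytes 2 (850.3) and KO monocytes 3 (667). Mki67 was highest in KO monocytes 1 and Top2a in KO monocytes 2, while Cdk1 and Ccnb2 were at 0 in KO monocytes 1. The part of the progenitor and neutrophil markers in the differences of the 46 genes was not tested.

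**Figure D4:**
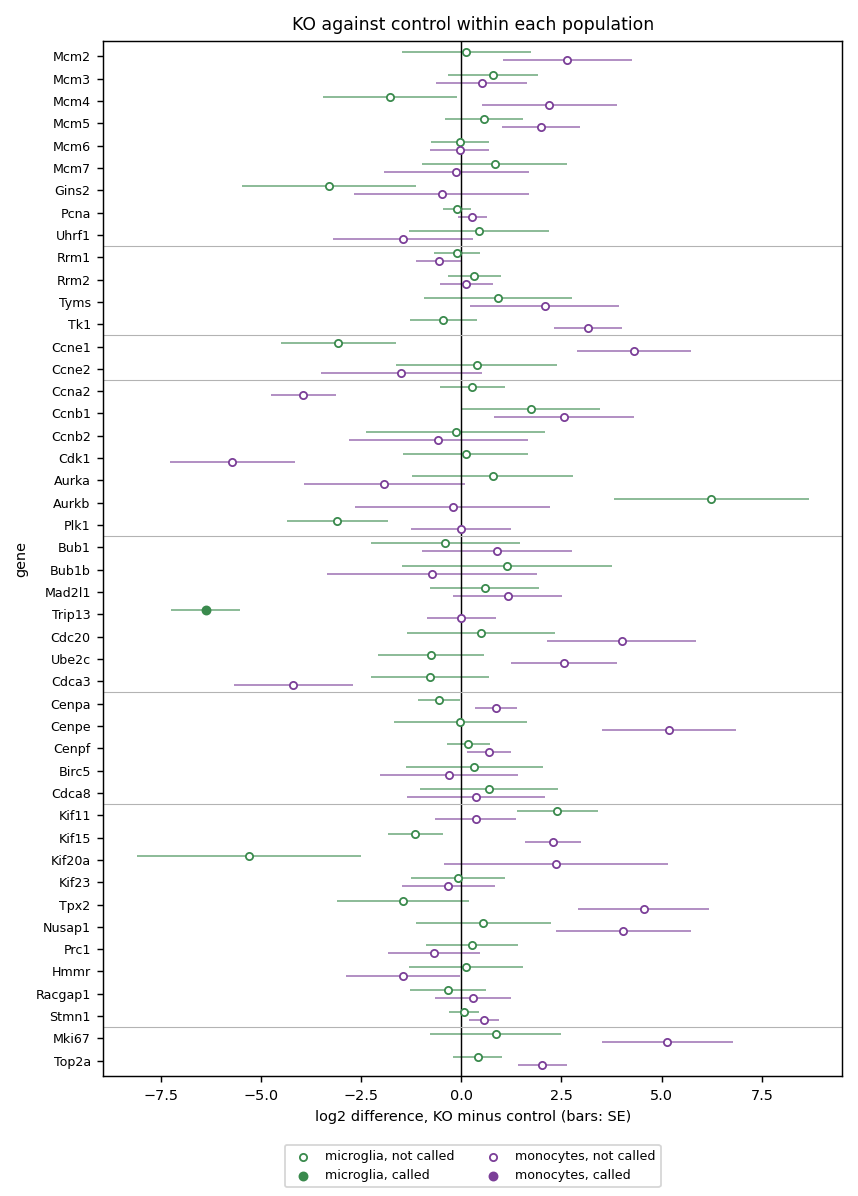
Log2 difference between KO and control animals (horizontal axis, bars are SE) for the 46 genes in microglia (green) and monocytes (purple), with filled points where limma's adjusted p was under 0.05. Trip13 in microglia is the single filled point, and the monocyte points spread from -5.71 (Cdk1) to 5.18 (Cenpe).

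Whether the difference between populations depended on genotype was tested by the interaction term, the monocyte-minus-microglia difference in KO animals minus that in control animals. For this term 0 of 46 genes were called, and 0 of all 12432. At an unadjusted p under 0.05 there were 8 of 46, beside 4.75% of all genes. The smallest p-values belonged to Trip13, whose difference moved by 6.37 (SE 1.22, limma adjusted p = 0.318), and Ccna2, by -4.22 (SE 1.15, limma adjusted p = 0.791). Tk1, called in control animals alone, had a term of 3.61 (SE 1.19, limma adjusted p = 0.945), and Cdk1, called in KO animals alone, -5.82 (SE 2.20, limma adjusted p = 0.99), so that neither was shown to differ between the genotypes by limma. The other anchors of the roles had terms of 4.28 (SE 2.31, limma adjusted p = 0.999) for Mki67, 1.61 (SE 0.86, limma adjusted p = 0.999) for Top2a, 0.49 (SE 0.54, limma adjusted p = 0.999) for Stmn1, 3.51 (SE 2.62, limma adjusted p = 0.999) for Cdc20 and 3.09 (SE 1.77, limma adjusted p = 0.999) for Plk1. Those of Mcm5, Pcna, Rrm2, Ccne2, Ccnb2 and Aurkb were also not called. DESeq2 called Ccne1 (9.28), Cenpe (8.41) and Kif15 (3.64) higher and Ccna2 (-4.05) lower, with adjusted p of 0.000368, 0.00835, 0.00147 and 0.0127, while edgeR called 0 of 46.

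The reporter mice gave the population comparison with another library kit and total RNA (4 libraries against 4, limma with p adjusted over 7706 genes). Only 17 of the 46 genes passed the filter of 10 normalized counts in 4 libraries, so that 29 were not tested. Of the 17, 0 were called, beside 0.493% of tested genes lower and 0.415% higher, and 3 had an unadjusted p under 0.05, beside 7.53%. edgeR called 0 and DESeq2 called Stmn1, lower in monocytes. The number of the 46 with a read was 45, 46, 12 and 9 in microglia 1 to 4 and 40, 29, 5 and 36 in monocytes 1 to 4, and at the depth of the shallowest library 45, 44.1, 11.1 and 8.65, and 36.5, 23, 4.4 and 35.7, would be expected. Other marker lists separated the GFP populations without overlap in summed counts. Endothelial markers summed to 75.82 to 307.7 in monocytes (4 of 4 with reads) and 0 to 65.84 in microglia (3 of 4, Ly6c1 at 0), and T and NK cell markers to 21.81 to 142.7 (3 of 4, Cd8a at 0) and 0 to 2.583 (2 of 4, Cd3g and Cd3d at 0). Myeloid progenitor markers summed to 0 to 60.59 in monocytes (5 of 6, Mpo at 0) and 178.2 to 423.8 in microglia (2 of 6, with Kit, Mpo, Prtn3 and Ctsg at 0), and astrocyte markers to 1.322 to 88.13 (5 of 6, Aqp4 at 0) and 173.4 to 692 (5 of 6, Aldoc at 0). The progenitor sum runs against most of its markers. Of these 6, 4 had a log2 difference, monocytes minus microglia, above 0 and 1 below, with a median of 0.54. Neutrophil markers overlapped, at 417.7 to 1762 in monocytes and 892 to 1460 in microglia. Markers of oligodendrocyte precursors overlapped too, at 0, 3.442, 142.4 and 363 in microglia 1 to 4 and 0 to 4.847 in monocytes (Olig2 at 0). Of these 3 markers, 1 had a log2 difference above 0 and 2 below. The part of these lists in the GFP differences was not tested. GFP microglia 3 and 4, from single mice, lack most of these genes, as does GFP monocytes 3. Over all 46 genes the median log2 difference was -1.05, with 34 below and 12 above 0, beside 0.07 for all genes with a read. It ran from -1.47 without GFP microglia 4 to -0.34 without GFP microglia 2, with -0.35 without GFP microglia 1 and -0.54 without GFP monocytes 3, and leaving out all 3 few-gene libraries gave -1.93.

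Mki67 had 798, 765, 127 and 736 normalized counts in GFP microglia 1 to 4 and 133.5, 107, 0 and 184 in GFP monocytes 1 to 4. Microglia 3 lies inside the monocyte range, while the other 3 microglia libraries lie above all monocyte libraries (-3.60, SE 1.35, limma adjusted p = 0.351). Top2a had 149.8, 123.5, 0 and 0 in microglia and 22.6, 15.5, 0 and 46.1 in monocytes, so that the 2 microglia libraries with reads were above all monocytes and the other 2 were at 0 (-0.01, SE 2.17, limma adjusted p = 0.999). Tpx2, which starts spindle microtubules and activates Aurora A, had 41.3, 40.5, 19.98 and 81.5 in microglia and 5.01, 0.104, 0 and 0 in monocytes. Stmn1 had 33.6, 31.8, 146 and 415 in microglia, highest in few-gene libraries 3 and 4, and 21.3, 1.25, 1.32 and 4.85 in monocytes. These were the 2 genes of the 46 without overlap, both lower in monocytes (2.13% of all genes; 0 were higher, beside 2.67%), at -4.70 (SE 1.73, limma adjusted p = 0.327) and -4.16 (SE 1.90, limma adjusted p = 0.594). Without the 3 libraries of few detected genes, 12 of the 46 genes passed the filter and Mki67 and Top2a were called lower in monocytes, at -2.49 (SE 0.27, limma adjusted p = 0.000101) and -2.38 (SE 0.49, adjusted p = 0.00748), where 6.86% of 7264 genes were lower. With the same 17 genes tested, a choice made after seeing the data, Ccna2 was called too (-2.62, SE 0.80, adjusted p = 0.0483), and Stmn1 (adjusted p = 0.186) and Tpx2 (0.0663) were not.

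In the GFP table all 7 mitotic cyclins and kinases had a log2 difference below 0, from -2.10 to -0.81, and 6 of 9 licensing and fork genes had one above 0 (48.1% of all genes with a read were below 0 and 51.9% above). The second count rests on the libraries of few detected genes: without them Mcm2 went from 0.59 to -0.66, Mcm6 from 1.08 to -0.37 and Mcm4 from 1.24 to 0.00, and of the nucleotide genes Rrm1 went from above 0 to -1.36. Mcm3 (0.85) and Pcna (0.91) stayed above 0 without them. Mcm3 had 15.5, 52.9, 9.99 and 0 in microglia and 40.7, 73.7, 40.97 and 48.5 in monocytes, which overlap (2.34, SE 1.90, limma adjusted p = 0.999). Pcna had 49.1, 77.9, 125 and 0 and 86.5, 102, 0 and 182, and Mcm5 30.99, 24.1, 6.24 and 0 and 10.03, 7.49, 0 and 9.70, also with overlap. Cdk1 had 18.1, 17.6, 132 and 0 in microglia and 4.39, 7.28, 0 and 7.27 in monocytes, Ccna2 51.7, 48.6, 0 and 17.8 and 7.52, 3.33, 0 and 14.5, and Ccnb2 51.7, 18.1, 0 and 0 and 0, 0, 0 and 2.42. For these 3 the values of microglia 1 and 2 were above those of all monocyte libraries, and at least 1 of microglia 3 and 4 was at 0. Plk1 had 25.8, 12.9, 0 and 0 and 0, 0.104, 0 and 0, where the 0.104 is a single read. Aurkb had 12.9, 9.04, 0 and 0 and 13.8, 0, 0 and 0, Cdc20 5.17, 14.2, 0 and 2.96 and 1.88, 0, 0 and 7.27, Rrm2 12.9, 14.6, 0 and 0 and 1.25, 0, 0 and 0, and Ccne2 12.9, 5.59, 0 and 0 and 6.89, 3.33, 0 and 9.70. These 5 were not tested, and all are at 0 in microglia 3. Bub1, a checkpoint kinase, was at 0 in all 4 monocyte libraries and had 20.7, 17.6, 0 and 0 in microglia, at least 11.4-fold lower. None of the further cell cycle genes listed above was called in the GFP table.

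**Figure D5:**
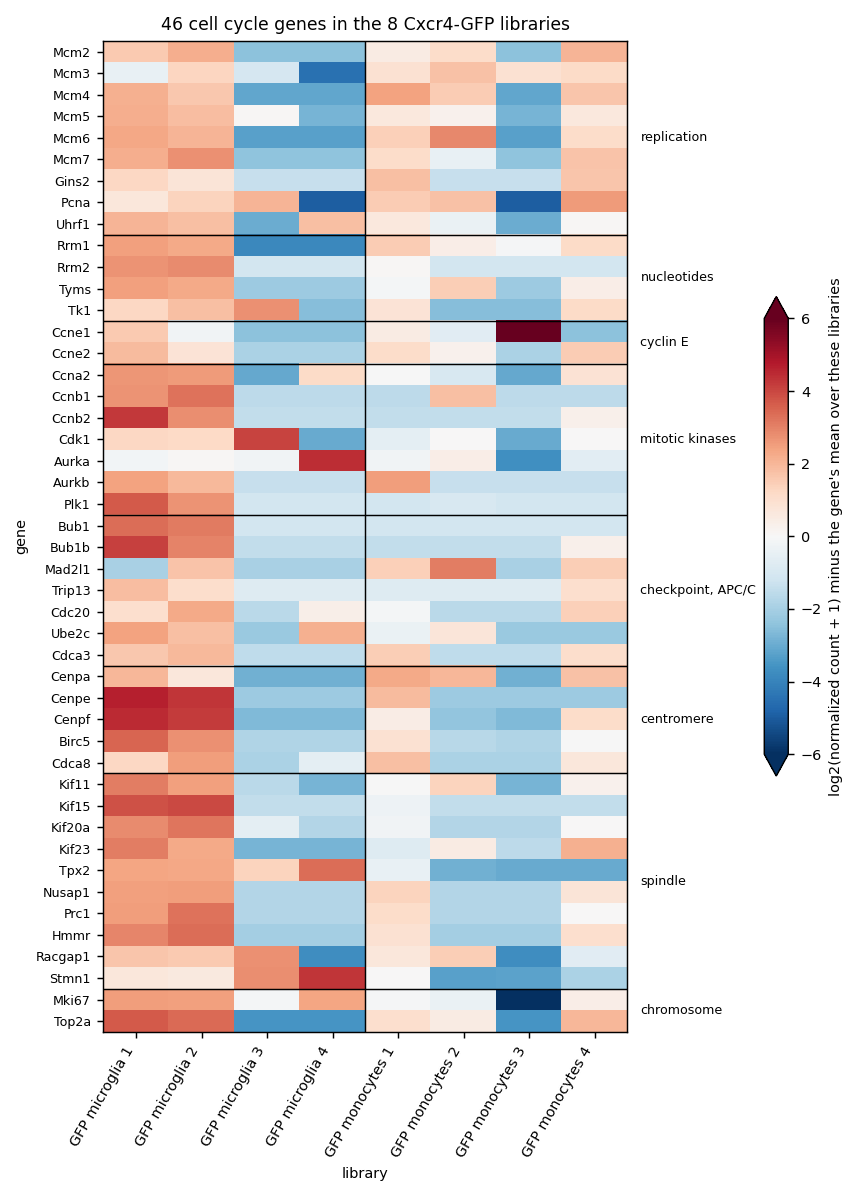
Normalized counts of the 46 genes (rows, grouped by role) in the 8 GFP libraries (columns), as log2 of the count plus 1 minus the gene's mean over the 8 libraries. GFP microglia 1 and 2 are red in most rows, GFP microglia 3 and 4 and GFP monocytes 3 are blue in most rows with single red cells such as Aurka in microglia 4 and Ccne1 in monocytes 3.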

How the data were processed

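Both deposited tables hold signal values, the authors' DESeq2-normalized counts per gene. Per the submitters' processing notes, the Cre libraries passed through bcl2fastq 2.20, kallisto and DESeq2, and the GFP libraries through CASAVA 1.82 and DESeq2, whose aligner and build were not given in the sources used here. The labels' protocols give total RNA for GFP (Nugen Ovation SoLo) and poly(A) RNA with SMART-Seq2 for Cre. Each table had its own normalization, so levels were compared within a table only. Within 0.01, 100% of values over 0 were whole multiples of what 1 read is worth, so recovered reads gave depth and served the count tests. For Cre, 679 altered gene names were restored and 24 names remain in date form, none of them among the 46.

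The main test was limma 3.58.1 (R 4.3.3) on log2(value + 1), over genes at 10 or more in at least 4 GFP or 3 Cre libraries, with Benjamini-Hochberg adjustment over all genes tested and a threshold of 0.05. The Cre fit held all 4 groups. Alternatives were edgeR 4.0.16 and DESeq2 1.42.0 on recovered reads, other pseudocounts, filters and scalings, an animal block and leaving out libraries. The limma fit was tested on simulated counts of a single dispersion, with changes placed in well-detected genes only. That setting differs from genes at 0 in some libraries and high in others, so the test does not cover them. Counting intervals are exact at 95% and, like the floor of 3 reads, cover counting error only. The 46 genes and all lists were chosen with earlier results of these data known. Genes named are those called, those of smallest p where none was called, and 13 anchors of the roles; others, said so where named or listed for lacking overlap or standing apart, were chosen after their values were seen. Titles tie libraries to animals: each GFP pair shares 1 animal or pool, and 4 Cre animals gave both populations. Deviations of such pairs correlated at 0.238, 0.198, 0.127 and -0.113 in the GFP table and between -0.0555 and 0.00955 in the Cre table. Replicates are separate animals or pools.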

Additional observations from a re-analysis of the deposited data

Results flagged for a closer look

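In the GFP table, 16 of 98 groups of 4 values (16.3%) had a library far from the other 3. In 10 of the 16 the other 3 libraries were at 0. The rule flags such a group whatever the size of its value, so the share cannot be set against chance. In GFP microglia the flagged values were Uhrf1 in microglia 3, at 0, Cdk1 in microglia 3, at 132.4, Aurka in microglia 4, at 274.1, Mad2l1 in microglia 2, at 11.62, and Mki67 in microglia 3, at 127.4. Among GFP monocytes, library 1 stood apart for Rrm2 (1.253), Aurkb (13.78), Cenpe (15.66), Kif15 (1.253) and Tpx2 (5.013). Library 2 did so for Ccnb1 (9.156) and Plk1 (0.104), library 3 for Ccne1 (408.4), and library 4 for Ccnb2, Bub1b and Trip13 (2.424 each). The values of Plk1, Ccnb2, Bub1b and Trip13 are a single read each.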

How the results depend on the processing

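None of the called genes of the Cre table changed sign under the alternatives tried. No GFP gene was called in the main fit. Of the 12 genes tested without the 3 few-gene libraries, Rrm1, Mcm2 and Mcm6 changed sign, to -1.36, -0.66 and -0.37. Ccne1, Ccne2, Gins2 and Kif23, not tested in that fit, also went from above 0 (1.78, 0.50, 0.37 and 0.13) to below 0 on the values of the remaining libraries. Of the GFP genes 0 were called, 1 by DESeq2 and 2 when the 3 few-gene libraries were left out. With the same genes tested, a choice made after seeing the data, 3 were called. Of all genes tested, 0.908% were called in the main GFP fit and 2.43% by DESeq2. Without the 3 few-gene libraries 14.6% were called, and 15.5% with the same genes tested. Leaving out a library gave 0 of the GFP genes, with medians of -1.47 to -0.34, and the median was -1.93 without the 3 libraries. In control animals the 9 calls became 14 by DESeq2 and 3 in the fit of the 2 groups alone. On leaving out a library they became 3 to 12. Of all tested genes, limma called 6.52% in the main fit and DESeq2 13%, so DESeq2 called more of all genes too. The share was 5.1% without control microglia 1, with 3 calls, and 5.53% without control monocytes 2, with 12. The median of -3.15 became -2.42 with log2(value + 10) and -2.20 with CPM scaling, and -3.31 to -2.89 on leaving out a library. In KO animals the 7 calls became 3 by edgeR and 2 to 9 on leaving out a library, with medians of -2.48 to -1.59. Between KO and control microglia the 1 call became 0 with a mean of 50 or more, by edgeR, by DESeq2, in the fit of the 2 groups alone and on leaving out any library, with medians of -0.00 to 0.23. Between KO and control monocytes 0 became 5 by DESeq2 and 0 to 1 on leaving out a library, with medians of 0.25 to 0.90, and for the interaction 0 became 4 by DESeq2, with 0 and medians of 0.25 to 1.10 on leaving out a library. Shares of all genes are not given here for the fit of the 2 groups alone, the KO alternatives or the interaction by DESeq2. Those counts therefore cannot be set against a share. The cause of the changed counts and medians was not tested. With the animal as a replicate block, the calls were 0 (GFP), 9 (control), 6 (KO, Prc1 lost), 1 (microglia), 0 (monocytes) and 0 (interaction), and no other call changed. Groups of 3 and the reads at 0 in monocyte libraries limit what can be called.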

Other observations

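Libraries of 1 group could hold a gene at 100 or more normalized counts and at 0. Of the cell cycle genes that reached 100 in a library, 11 of 33 (33.3%) were at 0 in another library of control monocytes, beside 20.7% of all genes, and 6 of 32 (18.8%) in KO monocytes, beside 13.4%. In control microglia the same held for 0 of 44, beside 11.4% of all genes, and in KO microglia for 1 of 42 (2.38%), beside 8.32%. Bub1b, chosen after its values were seen, which monitors spindle attachment, was at 592.5 in KO monocytes 2 and at 0 in the other KO monocyte libraries.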
